A study of Mus musculus with 4 samples.

Results

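The genes described here are 9 genes that are used to recognise monocytes recruited from blood: Ccr2, Cx3cr1, Ly6c2, F13a1, Chil3, Plac8, Vcan, Fn1 and Nr4a1. They were found by symbol among the 29247 Ensembl gene IDs of the count table, and all 9 were present and passed the filter on low counts. They were followed in liver macrophages of C57BL6J mice aged 8 weeks, sorted by flow cytometry and profiled by mRNA sequencing. APAP Cxcr4+ macrophages (3 libraries) came from mice given 300 mg/kg acetaminophen (APAP) in saline into the peritoneum, a drug that kills hepatocytes at high dose. They were collected at 72 h and sorted for the chemokine receptor Cxcr4. Control macrophages (1 library) are labelled only as control: the labels give neither their gate nor a vehicle, so APAP treatment and the Cxcr4 sort cannot be told apart. The APAP Cxcr4+ columns carry no replicate number and are called the first, the second and the third library by their place in the table. Nothing says whether they came from separate mice, and p-values therefore reflect a spread among libraries that may be technical.

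Blood monocytes of the mouse come in a classical form with high Ly6C and CCR2 and a nonclassical, patrolling form with low Ly6C and high CX3CR1. CCR2 and its chemokine ligands bring classical monocytes out of the bone marrow and into injured tissue. In the acetaminophen-injured liver such cells enter the necrotic areas and mature into macrophages beside the resident Kupffer cells. As they mature they lose Ly6C and gain CX3CR1, and the nuclear receptor NR4A1 is required for the nonclassical form.

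Levels are given as CPM, read counts scaled to a library total of 1000000 after TMM adjustment, which equalises the bulk of genes between libraries. Of the 9 genes, 7 rose and 2 fell in APAP Cxcr4+ macrophages against control macrophages (edgeR quasi-likelihood test, adjusted p below 0.05). Across the 18715 genes tested, 25.4% were called higher and 18.9% lower, 44.3% in all. The counts were 7 higher and 2 lower with DESeq2 (26.3% and 18.2% of all genes), 7 and 1 with limma-voom (22.1% and 19.5%), and 5 and 1 against a 2-fold change with edgeR's glmTreat (5.87% and 1.5%). The 7 that rose were the receptors Ccr2 and Cx3cr1, the surface marker Ly6c2, and the secreted or matrix genes F13a1, Chil3, Vcan and Fn1. The 2 that fell were Plac8 and, by a small margin, Nr4a1. All 3 APAP Cxcr4+ libraries were above the control for the same 7 genes and below it for the same 2. Over all genes, 45.7% had all 3 libraries above and 39.2% below, so that 84.8% had no overlap. The median log2 fold change was 4.60 for the 9 genes, a value unaltered when the genes with 0 control counts are set at their lower bound, and 0.08 for all genes tested.

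**Figure D1:**
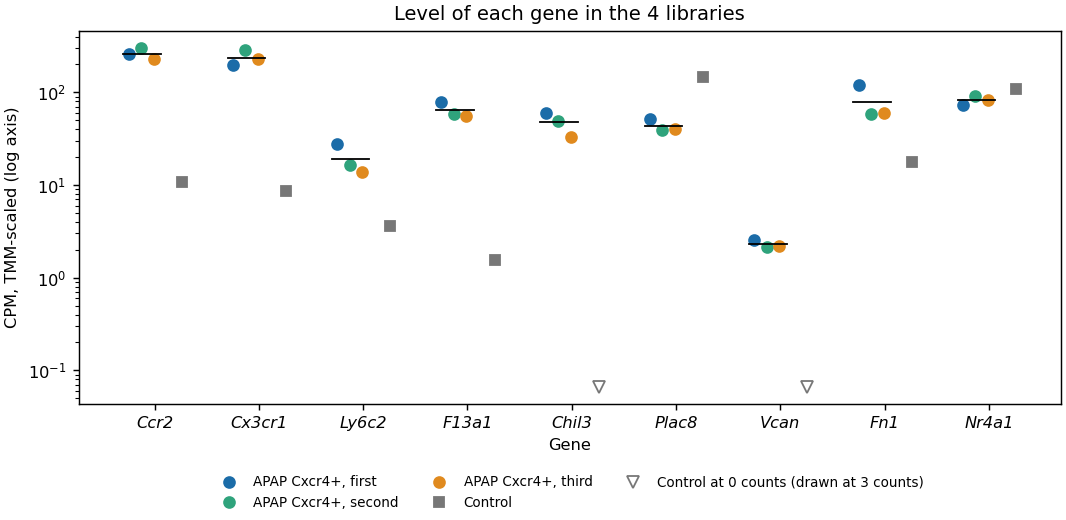
Level of the 9 genes in each library, as CPM on a log axis. Filled circles are the 3 APAP Cxcr4+ libraries with their mean as a bar, squares are the control, and open triangles mark the control where it had 0 counts, drawn at a floor of 3 counts (0.0668 CPM). Plac8 and Nr4a1 are the genes for which the control square stands above all circles.

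The libraries were of like depth: total counts were 48282283 to 56702837 in APAP Cxcr4+ macrophages and 49950909 in the control. Fewer genes had reads in the control, 18793, than in APAP Cxcr4+ libraries, 23376 to 23880. Of the 18715 genes tested, 1520 had 0 reads in the control, so such a 0 is not particular to the genes named here. Read counts of every pair of libraries differed by more than sampling noise (chi-square per degree of freedom 16.5 to 56.7 between APAP Cxcr4+ libraries). Of 8 general macrophage markers, 2 rose and 4 fell, and their summed level was 17942 to 21269 CPM in APAP Cxcr4+ libraries and 28155 CPM in the control. Adgre1, the gene of F4/80, stood at 1196 to 1567 CPM in APAP Cxcr4+ libraries and 2059 CPM in the control. The complement gene C1qa, named after its value was seen, fell most of the 8, at 1600 to 2326 CPM in APAP Cxcr4+ libraries and 9295 CPM in the control. Of 7 Kupffer cell markers, 6 fell, among them the lectin Clec4f (2785 to 4670 CPM in APAP Cxcr4+ libraries, 13080 CPM in the control), with a summed level of 12205 to 15163 CPM in APAP Cxcr4+ libraries and 32134 CPM in the control. In these sorted pools, fewer cells of a type and less RNA per cell cannot be told apart.

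Promoter windows from RefSeq (250 bases before to 50 after a transcription start, build GRCm38.p6) were matched for 8 of the 9 genes, all but Fn1, with 11 windows in all. They were searched on both strands for GAGGAAGT, a site of the myeloid factor PU.1, for TTGCGCAA, a site of the C/EBP factors, and for AAAGGTCA, a site of the NR4A receptors. No 2 matches overlapped. GAGGAAGT was found for 2 of the 8 genes, Ly6c2 and F13a1, against 3.69% of the 27025 genes with a window. Each of these 2 genes has 2 windows, from 2 annotated starts. The Ly6c2 window printed holds the letters, in the direction printed, at -108 and +27 from its start, and the same matches lie at -142 and -8 from the other start. The F13a1 window printed holds them at +15, and the other F13a1 window does not hold them. TTGCGCAA and AAAGGTCA were found for 0 of the 8, against 0.207% and 1.70% of all genes. A match of letters is a description of the window and shows no binding. Plac8 also has 2 windows, and that at chr5:100563047-100563346 is not printed. The windows of Ly6c2 and F13a1 are printed because they hold these letters, and that of Chil3 because the gene had 0 reads in the control. A window of Plac8 is printed because the gene fell while most of the others rose. All 4 are on the minus strand of the genome and are written from 5′ to 3′ along the gene, with PU.1 letters in capitals: Ly6c2 at chr15:75111922-75112221, F13a1 at chr13:37049164-37049463, Chil3 at chr3:106167515-106167814 and Plac8 at chr5:100572156-100572455.
Ly6c2: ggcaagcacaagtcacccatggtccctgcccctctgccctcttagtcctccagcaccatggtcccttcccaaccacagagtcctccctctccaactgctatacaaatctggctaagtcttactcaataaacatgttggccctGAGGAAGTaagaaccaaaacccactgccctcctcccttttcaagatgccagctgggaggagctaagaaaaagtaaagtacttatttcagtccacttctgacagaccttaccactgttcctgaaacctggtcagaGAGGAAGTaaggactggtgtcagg
F13a1: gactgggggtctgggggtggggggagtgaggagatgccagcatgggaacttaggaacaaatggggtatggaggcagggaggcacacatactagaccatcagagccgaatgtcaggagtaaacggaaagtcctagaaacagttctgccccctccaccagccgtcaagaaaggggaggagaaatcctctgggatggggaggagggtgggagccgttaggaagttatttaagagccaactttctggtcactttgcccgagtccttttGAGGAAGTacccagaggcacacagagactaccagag
Chil3: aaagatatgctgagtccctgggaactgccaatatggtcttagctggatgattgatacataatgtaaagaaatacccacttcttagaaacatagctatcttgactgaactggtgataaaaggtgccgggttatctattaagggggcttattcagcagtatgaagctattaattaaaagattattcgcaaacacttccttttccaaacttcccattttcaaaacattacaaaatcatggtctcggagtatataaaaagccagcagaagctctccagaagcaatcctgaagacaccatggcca
Plac8: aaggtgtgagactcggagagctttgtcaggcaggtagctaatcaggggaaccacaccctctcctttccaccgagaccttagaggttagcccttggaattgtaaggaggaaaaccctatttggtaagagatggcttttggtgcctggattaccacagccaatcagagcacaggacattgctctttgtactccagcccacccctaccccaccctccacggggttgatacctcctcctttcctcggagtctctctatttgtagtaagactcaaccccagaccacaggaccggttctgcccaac

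Both chemokine receptors rose strongly. Ccr2 (ENSMUSG00000049103), the receptor of CCL2 and CCL7 that monocytes need to leave the bone marrow, stood at 258, 299.5 and 229 CPM in APAP Cxcr4+ libraries, against 10.8 CPM in the control. The 3 APAP Cxcr4+ libraries lay close together and far above the control, with a mean of 262 ± 35.5 CPM (SD, n = 3), 24.3-fold the control. The log2 fold change was 4.60 (SE 0.22, edgeR adjusted p = 0.000841). Cx3cr1 (ENSMUSG00000052336), the receptor of fractalkine, stood at 197, 287 and 226 CPM in APAP Cxcr4+ libraries, against 8.57 CPM in the control. The groups did not overlap, and the mean of 237 ± 45.9 CPM (SD, n = 3) was 27.6-fold the control (log2 fold change 4.79, SE 0.29, edgeR adjusted p = 0.000878). For both receptors the second library was the highest. Cxcr4, the sort marker, was also highest there, at 84.5, 132 and 101 CPM in APAP Cxcr4+ libraries and 41.3 CPM in the control.

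Ccr2 and Cx3cr1 are not limited to monocytes, and markers of other cells that can carry them moved in the same libraries. All 7 markers of conventional dendritic cells rose, among them the receptor Flt3 (13.3 to 21.4 CPM in APAP Cxcr4+ libraries, 1.69 CPM in the control), with a summed level of 69.5 to 96.4 CPM in APAP Cxcr4+ libraries and 19.5 CPM in the control. Of 7 natural killer cell markers 4 rose and 0 fell, at a summed 30.9 to 46.9 CPM in APAP Cxcr4+ libraries and 9.39 CPM in the control; the receptor Ncr1 was at 2.56 to 3.05 CPM in APAP Cxcr4+ libraries and 0.356 CPM in the control. Of 7 T cell markers 4 rose and 0 fell, at a summed 85.1 to 111 CPM in APAP Cxcr4+ libraries and 61.4 CPM in the control, and Cd3e did not pass (14.2, 15.6 and 11.8 CPM in APAP Cxcr4+ libraries, 9.23 CPM in the control). Their part in the rise of the receptors was not tested.

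Ly6c2, the gene of the Ly6C antigen that defines classical monocytes, rose less than the receptors. Ly6c2 (ENSMUSG00000022584) stood at 27.7, 16.5 and 13.8 CPM in APAP Cxcr4+ libraries, against 3.60 CPM in the control. All 3 libraries were above the control, and the first was 2.01-fold the third. The mean of 19.3 ± 7.39 CPM (SD, n = 3) was 5.36-fold the control (log2 fold change 2.42, SE 0.46, edgeR adjusted p = 0.00988). Tested against a 2-fold change with glmTreat, Ly6c2 did not pass (adjusted p = 0.0649). Its neighbour Ly6c1, a close copy known mainly from endothelium and T cells, stood at 1.61, 1.82 and 2.13 CPM in APAP Cxcr4+ libraries and 1.69 CPM in the control and did not pass (log2 fold change 0.14, SE 0.30). The coding bases of the 2 genes are 92.8% identical over 386 aligned bases and share a run of 188 bases, so reads may have been split between them or dropped, depending on a counting setting that is not given in the sources used here.

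Ly6c2 is also made by plasmacytoid dendritic cells and plasma cells. The plasmacytoid marker Siglech was at 18.0, 13.2 and 23.5 CPM in APAP Cxcr4+ libraries and at 0 counts in the control. Of that list 4 of 7 rose and 2 fell, and its summed level was lower in APAP Cxcr4+ libraries, at 582 to 684 CPM, than in the control, at 1509 CPM. That sum is mostly Irf7 and Bst2, interferon-induced genes that other cells also make: they were the 2 that fell, and the other 5 genes of the list were each higher in all 3 APAP Cxcr4+ libraries than in the control. Of 5 plasma cell markers 3 rose and 0 fell, with Jchain, the joining chain of immunoglobulin, at 14.4 to 27.2 CPM in APAP Cxcr4+ libraries and 1.76 CPM in the control, and a summed 20.9 to 33.0 CPM in APAP Cxcr4+ libraries and 6.72 CPM in the control. Ly6c2 was highest in the first APAP Cxcr4+ library, and Siglech and Jchain in the third, but their lists were mixed. Of the 7 plasmacytoid genes, 2 were highest in the first library, 1 in the second and 4 in the third. Of the 5 plasma cell genes, 2 were highest in the first library, 2 in the second and 1 in the third. The part of these cells in the Ly6c2 value was not tested.

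F13a1 and Chil3 had the largest increases among the abundant genes of the 9. F13a1 (ENSMUSG00000039109), the catalytic subunit of coagulation factor XIII that cross-links fibrin, stood at 78.5, 58.8 and 55.4 CPM in APAP Cxcr4+ libraries, against 1.56 CPM in the control. The mean of 64.2 ± 12.4 CPM (SD, n = 3) was 41.2-fold the control, with no overlap (log2 fold change 5.36, SE 0.31, edgeR adjusted p = 0.000867). Platelets also carry this transcript. Of 4 platelet genes tested, 1 rose and 1 fell. The gene that rose, Treml1, a receptor of platelet granules named after its value was seen, stood at 1.93, 1.77 and 2.24 CPM in APAP Cxcr4+ libraries and had 0 reads in the control, at least 29.6-fold higher. The platelet chemokine Pf4, which macrophages also make, fell, at 18.7 to 25.5 CPM in APAP Cxcr4+ libraries and 38.4 CPM in the control. The summed list, most of it Pf4, was 21.9 to 28.3 CPM in APAP Cxcr4+ libraries and 39.3 CPM in the control. The part of platelets in the F13a1 value was not tested.

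Chil3 (ENSMUSG00000040809) encodes Ym1, a secreted chitinase-like protein of monocytes and alternatively activated macrophages. It stood at 59.1, 49.6 and 33.0 CPM in APAP Cxcr4+ libraries, from 2970, 2667 and 1934 reads, and had 0 reads in the control. The mean of 47.3 ± 13.2 CPM (SD, n = 3) was at least 708-fold higher than a floor of 3 reads in the control library, and even the lowest library was at least 494-fold above it. These bounds cover counting error only (edgeR adjusted p = 0.00107). Its close copy Chil4, with coding bases 95.4% identical and a shared run of 136 bases, had 20, 8 and 14 reads in APAP Cxcr4+ libraries and 0 in the control. Chil3 is also known from neutrophils, and of 8 neutrophil markers tested 5 rose and 0 fell, with a summed 342, 269 and 189 CPM in APAP Cxcr4+ libraries and 116 CPM in the control. Both Chil3 and this sum were highest in the first and lowest in the third library. Most of the sum was Csf3r, at 231, 199 and 153 CPM in APAP Cxcr4+ libraries and 111 CPM in the control. Mmp8 rose (42.7, 22.1 and 15.7 CPM in APAP Cxcr4+ libraries, 0.134 CPM in the control). Cxcr2 also rose (14.5, 11.7 and 2.42 CPM in APAP Cxcr4+ libraries, 0.0890 CPM in the control). These 3 genes were named after their values were seen. Ly6g, the defining neutrophil gene, had 7, 2 and 2 reads in APAP Cxcr4+ libraries and 0 in the control. S100a8 did not pass (24.0, 12.5 and 4.69 CPM in APAP Cxcr4+ libraries, 2.51 CPM in the control). The part of neutrophils in the Chil3 value was not tested.

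**Figure D2:**
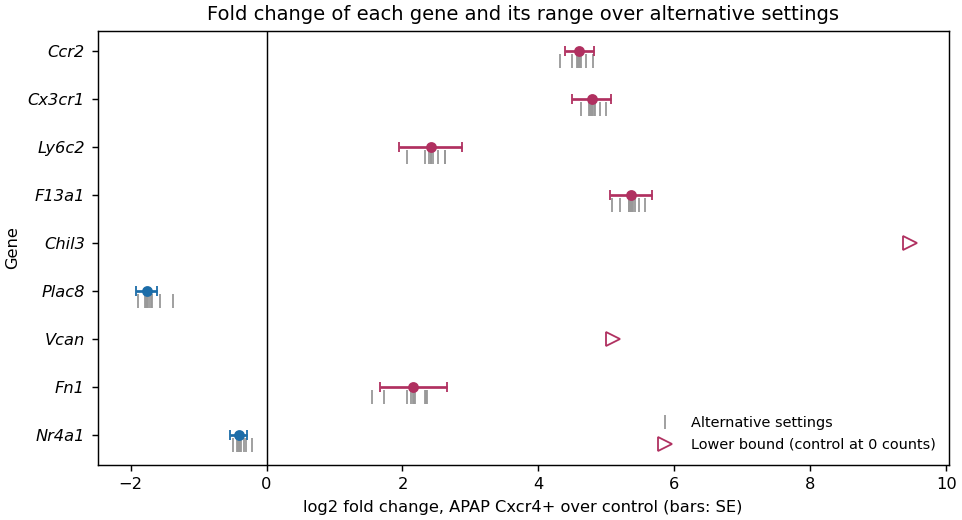
Log2 fold change of each gene in APAP Cxcr4+ macrophages over control. Circles with bars are the edgeR estimate ± an SE derived from its F statistic, and grey ticks are the alternative settings. Open triangles are lower bounds for Chil3 and Vcan, which had 0 control reads. Plac8 and Nr4a1 lie left of 0, and all ticks of a gene lie on the same side of 0 as its circle.

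The matrix genes Vcan and Fn1 rose at very different levels. Vcan (ENSMUSG00000021614), versican, a large chondroitin sulphate proteoglycan of provisional matrix and a marker of classical monocytes, had 128, 114 and 130 reads in APAP Cxcr4+ libraries and 0 in the control. These reads gave 2.55, 2.12 and 2.22 CPM in APAP Cxcr4+ libraries, a mean of 2.30 ± 0.223 CPM (SD, n = 3) that was at least 34.4-fold higher than 3 reads in the control (edgeR adjusted p = 0.00112). Vcan had the lowest level of the 9 in APAP Cxcr4+ libraries. Fn1 (ENSMUSG00000026193), fibronectin, a cell-binding matrix glycoprotein, stood at 120.2, 58.6 and 59.2 CPM in APAP Cxcr4+ libraries, against 17.7 CPM in the control. All 3 libraries were above the control, and the first was 2.05-fold the lowest, the widest spread of the 9 genes. The mean of 79.3 ± 35.4 CPM (SD, n = 3) was 4.47-fold the control (log2 fold change 2.16, SE 0.50, edgeR adjusted p = 0.0177). Fn1 did not pass when the trend of fold change over exon length was removed (1.55, edgeR adjusted p = 0.051). It also did not pass against a 2-fold change with glmTreat (adjusted p = 0.114).

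Fibronectin of plasma is made by hepatocytes and that of tissue by fibroblasts, and markers of these cells went different ways. Of 10 hepatocyte genes 9 fell and 0 rose, with albumin (Alb) at 177 to 269 CPM in APAP Cxcr4+ libraries and 492 CPM in the control, and a summed 261 to 435 CPM in APAP Cxcr4+ libraries and 911 CPM in the control. Of 7 stellate cell and fibroblast genes 3 rose and 2 fell, at a summed 45.5 to 57.1 CPM in APAP Cxcr4+ libraries and 39.9 CPM in the control. The 3 that rose were collagen genes, among them Col1a1 (6.91 to 8.16 CPM in APAP Cxcr4+ libraries, 0.801 CPM in the control). The 2 that fell, named after their values were seen, were Lrat and Dcn. Lrat was at 2.76 to 2.90 CPM in APAP Cxcr4+ libraries and 8.86 CPM in the control. Dcn was at 7.93 to 10.2 CPM in APAP Cxcr4+ libraries and 17.9 CPM in the control. Of 7 sinusoidal endothelial genes 1 rose and 3 fell, at a summed 882 to 1300 CPM in APAP Cxcr4+ libraries and 1911 CPM in the control, and Stab2 did not pass (264 to 365 CPM in APAP Cxcr4+ libraries, 407 CPM in the control). The part of hepatocytes, fibroblasts and endothelium in the Fn1 value was not tested.

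Plac8 was the gene of the 9 that fell most. Plac8 (ENSMUSG00000029322) encodes a small cysteine-rich protein that is abundant in monocytes and is also found in neutrophils, plasmacytoid dendritic cells and lymphocytes. It stood at 51.0, 39.4 and 40.0 CPM in APAP Cxcr4+ libraries, against 148 CPM in the control. The groups did not overlap: the APAP Cxcr4+ mean was 43.5 ± 6.55 CPM (SD, n = 3), and the control was 3.40-fold that mean. Plac8 fell by 1.76 on the log2 scale (SE 0.15, edgeR adjusted p = 0.00126). It was the gene of the 9 with the highest level per length in the control.

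Nr4a1 (ENSMUSG00000023034), the nuclear receptor NUR77, was the gene that moved least. It stood at 73.4, 91.0 and 82.1 CPM in APAP Cxcr4+ libraries, against 109 CPM in the control. All 3 libraries were below the control, with a mean of 82.2 ± 8.81 CPM (SD, n = 3). Nr4a1 fell by 0.41 on the log2 scale (SE 0.13, edgeR adjusted p = 0.0482), and the call was lost under 9 of 12 alternative settings, so the difference is at the edge of what these libraries can show. With library totals that were not rescaled the value was -0.21 (adjusted p = 0.232). Of the other Nr4a genes, Nr4a2 rose (2.47, 2.72 and 2.59 CPM in APAP Cxcr4+ libraries, 0.579 CPM in the control; log2 fold change 2.16, SE 0.30, edgeR adjusted p = 0.00374) and Nr4a3 did not pass (2.69, 1.66 and 1.74 CPM in APAP Cxcr4+ libraries, 1.25 CPM in the control). The coding bases of Nr4a1 share no run longer than 24 bases with either.

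Per kb of exon, with all annotated exons of a gene merged, the order of the genes differed between the groups. Merged exons can be longer than the transcript made, so the order within a library depends in part on the annotation. The receptors led in APAP Cxcr4+ macrophages, with Cx3cr1 at 52.5 ± 10.2 and Ccr2 at 38.8 ± 5.25 CPM per kb (SD, n = 3). Chil3 at 29.0 ± 8.10, Plac8 at 27.3 ± 4.11 and Nr4a1 at 23.4 ± 2.51 CPM per kb followed. F13a1 at 9.53 ± 1.85, Ly6c2 at 7.05 ± 2.70 and Fn1 at 6.79 ± 3.03 CPM per kb came next, and Vcan was last at 0.159 ± 0.0154 CPM per kb. Within 1 SD, neighbours overlapped from Cx3cr1 down to Nr4a1 and from F13a1 to Fn1, while Nr4a1 stood clear of F13a1 and Fn1 of Vcan. In the control Plac8 led at 92.7 CPM per kb, followed by Nr4a1 at 31.1, and none of the others was above 1.90 CPM per kb. Among all genes tested, Plac8 stood at percentiles 89.8 to 92.1 of CPM per kb in APAP Cxcr4+ libraries and at 96.5 in the control, and Cx3cr1 at 94.4 to 96.3 in APAP Cxcr4+ libraries and at 48.2 in the control.

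**Figure D3:**
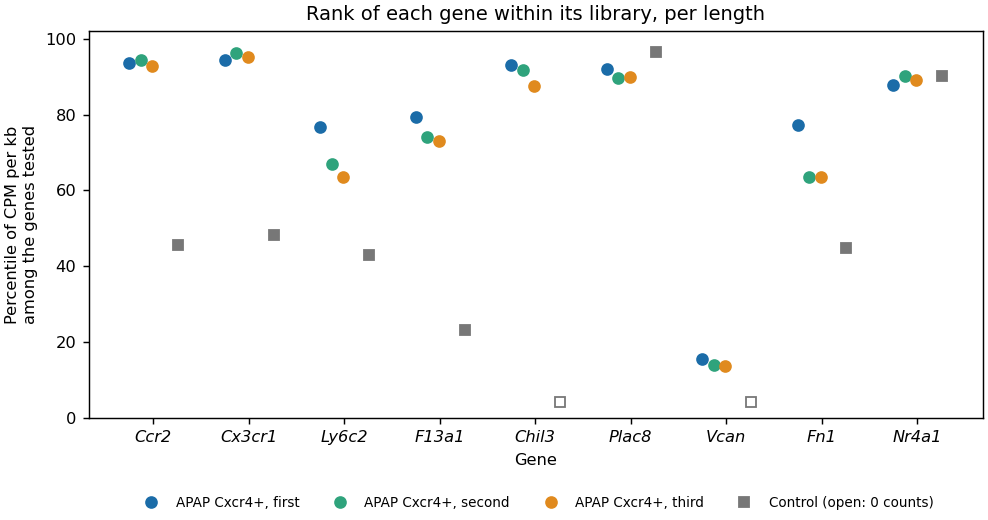
Percentile of each gene's CPM per kb of exon among the genes tested, within each library. Circles are the 3 APAP Cxcr4+ libraries and squares the control, open where it had 0 reads. Plac8 and Nr4a1 are in the upper range in every library, while the receptors stand above 92 in APAP Cxcr4+ libraries and below 49 in the control.

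The ratio of the Ly6C gene to the fractalkine receptor falls as monocytes mature. It can be read within each library and does not depend on library scaling. Its size depends on the exon lengths used, which are the same in every library. Ly6c2 per kb was 0.231, 0.0943 and 0.100 of Cx3cr1 per kb in APAP Cxcr4+ libraries, against 0.692 in the control. The control value rests on 162 Ly6c2 reads and 385 Cx3cr1 reads. Cells other than monocytes can carry either gene in these pools, and whether the ratio reflects maturity was not tested. Ccr2 per kb was 0.874, 0.696 and 0.675 of Cx3cr1 in APAP Cxcr4+ libraries, against 0.841 in the control, so that the control lay inside the range of the APAP Cxcr4+ libraries. Nr4a1 per kb was 0.479, 0.407 and 0.466 of Cx3cr1 in APAP Cxcr4+ libraries, against 16.4 in the control.

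The 3 APAP Cxcr4+ libraries did not rank the same way for all 9 genes. The first library was the highest for 6 genes, Ly6c2, F13a1, Chil3, Plac8, Vcan and Fn1, and the second for Ccr2, Cx3cr1 and Nr4a1. Over all genes tested the first library was the highest for 36.9%, the second for 28.6%, the third for 34.5%. The ratio of the highest to the lowest library ran from 1.20 for Vcan to 2.05 for Fn1, above the median of 1.17 over genes tested with a mean of at least 1 CPM in all 9 cases. Fn1, Ly6c2 (2.01) and Chil3 (1.79) were above the 90th percentile of those genes, 1.62, and the rest of the 9 were below it. Marker lists of other cells also differed between these libraries. Of 8 neutrophil markers tested 7 were highest in the first library, all 7 B cell markers were highest in the second and all 10 hepatocyte genes in the third. The summed Kupffer cell markers were lowest in the first library, at 12205 CPM, against 15163 and 15064 CPM in the second and the third. All 7 B cell markers rose, at a summed 278 to 425 CPM in APAP Cxcr4+ libraries and 55.8 CPM in the control. The 5 basophil and mast cell genes had at most 0.41 CPM in sum in any library, and 0 reads in the control. The part of these cells in the order of the libraries was not tested.

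**Figure D4:**
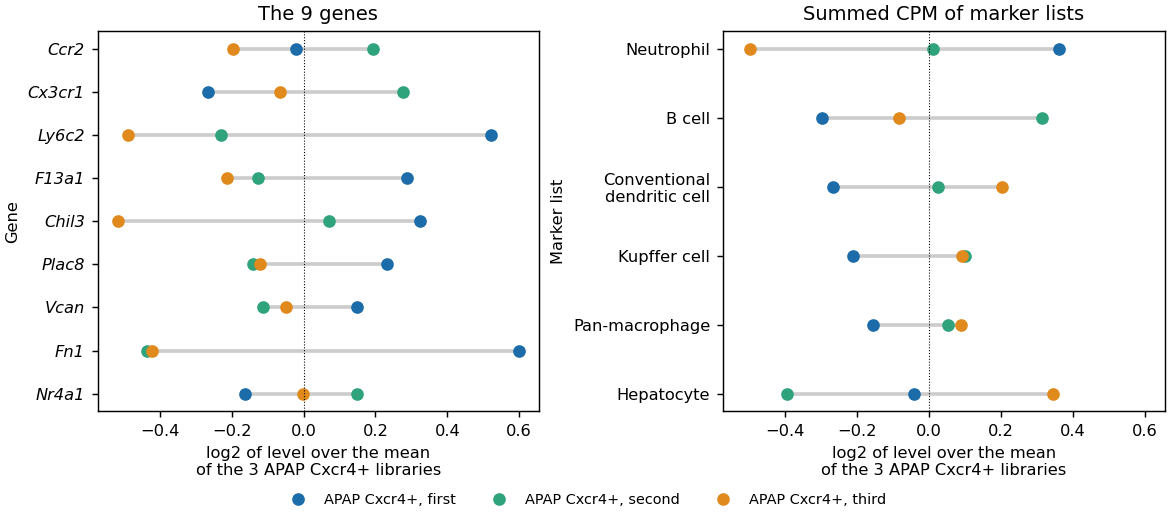
Log2 of the level in each APAP Cxcr4+ library over the mean of the 3 libraries, for the 9 genes (left) and for the summed CPM of 6 marker lists (right), with colours for the libraries. The first library is rightmost for 6 of the 9 genes and for the neutrophil list. The second is rightmost for Ccr2, Cx3cr1, Nr4a1, the B cell list and, by a small margin over the third, the Kupffer cell list.

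Other genes known from classical monocytes rose more often than they fell. Of 16 such genes, 9 rose and 2 fell, with a median log2 fold change of 0.65, against 0.08 for all genes tested. The counts of this list and of those that follow stand beside 25.4% higher and 18.9% lower over all genes tested. Thrombospondin 1 (Thbs1), a matricellular protein, stood at 68.4, 43.2 and 36.1 CPM in APAP Cxcr4+ libraries, against 1.67 CPM in the control (log2 fold change 4.88, SE 0.50, edgeR adjusted p = 0.00179). The 3 APAP Cxcr4+ libraries were all far above the control. Ifitm6, an interferon-induced transmembrane gene of monocytes, fell by 1.58 (SE 0.15), as Plac8 did; the other gene that fell was the endotoxin co-receptor Cd14 (-1.49, SE 0.23), named after its value was seen.

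Genes of nonclassical monocytes went both ways. Of 12 such genes, 2 rose and 6 fell, with a median log2 fold change of -0.57, and 2 were higher and 2 lower against a 2-fold change. The receptor Cd300e stood at 41.7, 55.4 and 51.7 CPM in APAP Cxcr4+ libraries, against 199 CPM in the control, which was 4.01-fold their mean (edgeR adjusted p = 0.00107). The G protein subunit Gngt2 fell by 1.35 (SE 0.08) and the receptor Treml4 by 1.15 (SE 0.10). The 2 that rose, named after their values were seen, were angiotensin-converting enzyme (Ace, 3.58, SE 0.36) and the sialophorin CD43 (Spn, 2.75, SE 0.33).

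The ligands and signalling partners of the receptors changed little or fell. Of 8 such genes, 1 rose and 3 fell, with a median log2 fold change of -0.47. The CCR2 ligands Ccl7 and Ccl12 fell by 1.85 (SE 0.50) and 1.41 (SE 0.40), to 2.41, 0.912 and 1.18 CPM for Ccl7 in APAP Cxcr4+ libraries, against 5.38 CPM in the control. Ccl2 had 9.47, 3.93 and 4.198 CPM in APAP Cxcr4+ libraries and 16.2 CPM in the control and did not pass (edgeR adjusted p = 0.0515). Adam10, a protease that sheds fractalkine, rose by 0.47 (SE 0.10), and the third gene that fell, named after its value was seen, was beta-arrestin 2 (Arrb2, -0.52). These calls were fragile: 5 fell and 2 rose without the first APAP Cxcr4+ library, and 0 fell and 0 rose without the second. Calls over all genes also moved, to 4185 lower and 5195 higher without the first, and 2022 lower and 2979 higher without the second.

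Partners of the matrix genes rose in 4 of 12 cases tested and fell in 1, with a median log2 fold change of 0.90. The list has 14 genes, of which Tnfaip6 and Adamts15 did not pass the count filter. The integrin chain Itga4, a receptor of fibronectin on monocytes, stood at 429, 368 and 362 CPM in APAP Cxcr4+ libraries, against 86.7 CPM in the control (log2 fold change 2.16, SE 0.15, edgeR adjusted p = 0.00100). Itgav, another fibronectin receptor chain, rose by 1.24 (SE 0.11). Tissue transglutaminase (Tgm2), an enzyme related to factor XIII, fell by 1.17 (SE 0.12), at 530, 469 and 452 CPM in APAP Cxcr4+ libraries and 1091 CPM in the control. The B subunit of factor XIII (F13b), which carries the A subunit in plasma, had 0.261 to 0.853 CPM in APAP Cxcr4+ libraries and 0.356 CPM in the control and did not pass.

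Of 6 transcription factors of monocyte development 1 rose and 2 fell, with a median log2 fold change of -0.07. Cebpb, which maintains nonclassical monocytes, fell by 1.41 (SE 0.10), at 230, 253 and 233 CPM in APAP Cxcr4+ libraries and 633 CPM in the control. Spi1, the gene of PU.1, fell by 0.80 (SE 0.10), and Zeb2 rose by 0.96 (SE 0.16). With the length trend removed, or against a 2-fold change, 0 of the 6 were called higher. Of 14 immediate early genes, the class to which Nr4a1 also belongs, 8 rose and 1 fell, with a median of 0.77. Egr3 rose by 4.88 (SE 0.32), Egr1 by 1.97 (SE 0.13) and Fosb by 1.84 (SE 0.18), while Ier2, named after its value was seen, fell by 0.39 (SE 0.10), a call lost with unscaled totals, with the length trend removed and against a 2-fold change. Immediate early genes are known to respond to cell dissociation and sorting; whether handling differed between the groups was not tested.

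**Figure D5:**
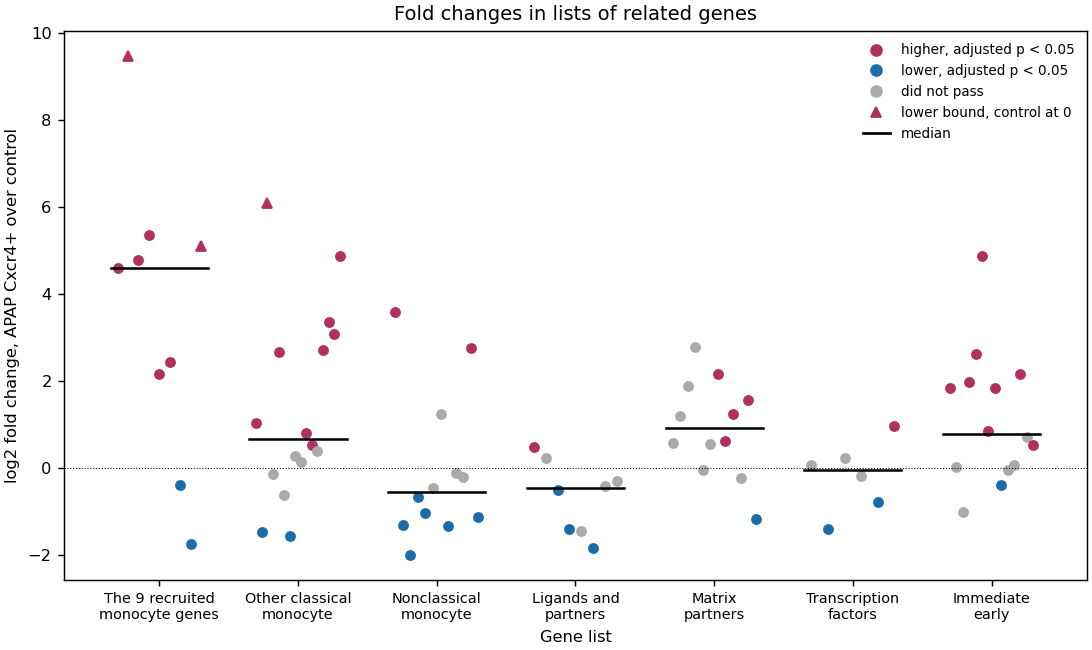
Log2 fold changes of the 9 genes and of 6 lists of related genes. Each point is a gene tested, red where it was called higher, blue where it was called lower and grey where it did not pass; triangles are lower bounds for genes with 0 control reads, and bars are medians. The 9 genes have a median of 4.60, and the nonclassical list a median of -0.57.

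Across all genes 4758 were called higher and 3537 lower, 6072 and 2343 with library totals that were not rescaled, and 2979 and 2022 without the second APAP Cxcr4+ library. Fold changes rose with exon length (Spearman's rho 0.223 over 18656 genes, which are not independent replicates). When that trend was removed, 7 of the 9 genes kept their call, the exceptions being Fn1 and Nr4a1.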

How the data were processed

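Messenger RNA libraries (Tecan universal plus mRNA-seq, per the labels) of 3 APAP Cxcr4+ and 1 control macrophage samples were compared. The authors deposited whole-number read counts per Ensembl gene with no normalization. The tools named are HISAT2 and Subread, and the build mm39, per the submitters' processing notes. Their versions, annotation, strand setting and treatment of shared reads: not given in the sources used here. Without a strand setting, reads of overlapping or antisense genes cannot be told apart. Symbols were matched for 28926 of 29247 IDs and exon lengths for 28950, from GENCODE M21, which is on another build than the files, so no gene coordinates from it are printed. The members and lists were chosen with earlier results of these data known.

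Differences were tested by edgeR 4.0.16 (R 4.3.3). Its filterByExpr (minimum count 10, minimum total 15) kept 18715 genes, TMM factors were applied, and glmQLFTest compared the groups with no covariate, with Benjamini-Hochberg adjustment over all genes and a threshold of 0.05. CPM uses TMM-scaled totals. The SE given with edgeR fold changes is not an output of that test. It was derived as the size of the fitted log2 coefficient divided by the square root of the F statistic. The single control adds nothing to the spread, which rests on the 3 APAP Cxcr4+ libraries (2 residual degrees of freedom) and is taken to hold for the control too. Folds against 0 control reads use a floor of 3 reads in that library, which covers counting error only.

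Named genes are the 9 genes, the 3 genes of smallest p in each related list, close copies, and the first gene of each marker list; other genes, such as Ccl2, F13b and Ly6g, were added after their values were seen, and some genes that the rule names are not reported here. A planned comparison of protein sequences was replaced by coding bases from GENCODE M21, over the aligned positions of the longest coding transcript. Alternatives were DESeq2 1.42.0 size factors and Wald test, upper-quartile factors, unscaled totals, removal of the count filter, a minimum of 5 CPM in any 1 library, limma-voom (limma 3.58.1), glmTreat against a log2 fold change of 1, removal of the lowess trend over length, and leaving out each APAP Cxcr4+ library.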

Additional observations from a re-analysis of the deposited data

How the results depend on the processing

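The 7 higher calls among the 9 genes kept their direction under all 12 alternatives that gave a value. Their number was 6 with the 5 CPM filter, which removed Vcan, 6 with the length trend removed and 5 with glmTreat. Over all genes, the higher calls in these settings were 3097 of 10959, 3773 of 18656 and 1099 of 18715. The lower calls numbered 1 in place of 2 with DESeq2 size factors, unscaled totals, no count filter, the 5 CPM filter, limma-voom, glmTreat and the length trend removed, since Nr4a1 was lost each time. In these settings the lower calls over all genes ran from 280 with glmTreat to 3644 with limma-voom, both of 18715. Without each APAP Cxcr4+ library in turn, 7 genes were higher each time and 1 to 2 lower. Over all genes, 5195, 2979 and 4774 were then higher and 4185, 2022 and 3509 lower, of 18463, 18335 and 18319 tested. Log2 fold changes ran from 4.31 to 4.80 for Ccr2, 4.63 to 4.99 for Cx3cr1, 2.07 to 2.63 for Ly6c2, 5.08 to 5.57 for F13a1, 1.55 to 2.37 for Fn1, -1.90 to -1.38 for Plac8 and -0.49 to -0.21 for Nr4a1. The adjusted p of Nr4a1 ran from 0.0163 to 1.

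In the 6 related lists together, 25 of the 68 genes tested were higher and 15 lower, against 25.4% and 18.9% of all genes. With glmTreat 14 were higher and 4 lower, against 5.87% and 1.5% of all genes. Leaving out a library gave 20 to 29 higher and 11 to 21 lower. Across all genes, 3097 of the 10959 tested were higher with the 5 CPM filter. Of 18715 genes, 2343 were lower with unscaled totals, and 1099 higher and 280 lower with glmTreat, a test of a larger change. Leaving out a library gave 2979 to 5195 higher and 2022 to 4185 lower. Unscaled totals moved the median log2 fold change of all genes to 0.29. Removing the count filter gave a median of 0.53, over 27284 genes. The causes were not tested. No paired analysis was possible because the control has 1 library and the APAP Cxcr4+ columns carry no replicate number. At 2 to 3 CPM, as for Vcan, the 0 control reads allow a level of up to 0.0668 CPM.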
